A study of Triticum aestivum with 8 samples.

Results

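Drought was set against regular watering in leaves of C306, a bread wheat (Triticum aestivum) cultivar known among breeders as drought tolerant. The droughted C306 plants had water withheld from day 27 and were labelled as 48 days old, so they had been 21 days without water. The control C306 plants were of the same labelled age and were watered throughout. Each of the 2 C306 groups had 2 biological replicates, which gave 4 of the 8 arrays of the series. The other 4 arrays came from WL711, known as a drought-susceptible wheat, under the same watering regimes with 2 replicates each, and they served to estimate the spread and to test differences between cultivars. Total leaf RNA was hybridised to Affymetrix wheat arrays, whose probe sets each report 1 transcript or a group of like transcripts. All 61179 probe sets that were not Affymetrix controls were compared, out of 61290 on the array. The labels name no transgene or mutation and do not say whether a replicate was 1 plant or a pool.

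Plants that lose water accumulate abscisic acid, close their stomata and change the transcription of many leaf genes. Dehydrins and other late embryogenesis abundant (LEA) proteins shield membranes and proteins in drying cells, and many of their genes respond to abscisic acid. Photosynthesis, growth and cell division commonly slow in water-limited leaves, while genes of detoxification, osmolyte synthesis and defence are often engaged. Bread wheat is hexaploid, so near-identical copies of a gene on its 3 subgenomes can share probes, and a probe set may report the sum of several copies.

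The deposited values are log2 values centred on each probe set's median over the 8 arrays. They carry no level, so the leaf label could not be set against markers of leaf or other cells, and only differences between arrays are given. In leaf tissue, a change in the share of a cell type cannot be told apart from a change in RNA per cell. A positive difference means higher under drought. Differences were tested with limma over all 8 arrays, with p adjusted by Benjamini and Hochberg's method across the 61179 probe sets, and the threshold for passing was 0.05. With 2 arrays against 2, an exact permutation test of a single probe set cannot give a two-sided p below 0.333, so every call rests on the spread that limma pools over probe sets and groups. The poly-A spike-in control probe sets averaged -0.068 and -0.050 on the C306 drought arrays, against 0.62 and 0.48 on the C306 control arrays, and what parts them cannot be told apart from watering. The hybridisation control probe sets averaged -0.95 and 0.13 on the drought arrays and 0.06 and -1.02 on the control arrays, so 1 array of each group was low.

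In C306, 30 probe sets passed, which is 0.0490% of those tested. Drought raised 24 of them (0.0392%) and lowered 6 (0.00981%). At an unadjusted p under 0.05 there were 4727 probe sets (7.73%), of which 2498 were higher (4.08%) and 2229 lower (3.64%). The 24 that rose did so by 1.40 to 5.70 on the log2 scale, with a median of 3.24, which is 9.45-fold. The 6 that fell had changes of -3.63 to -1.11, with a median of -1.98. For comparison, the median change over all probe sets was -0.019 and the median absolute change 0.13. In all 30, both drought arrays lay beyond both control arrays. Such separation alone was common, since 17.2% of all probe sets were separated upward and 21.5% downward. When the deposited values were quantile normalised once more, 27 probe sets passed with 16 higher and 11 lower, and 19 of the 30 were among them. The platform annotation gave a gene to 2 of the 30, and 28 are known here by their probe set identifiers alone.

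**Figure D1:**
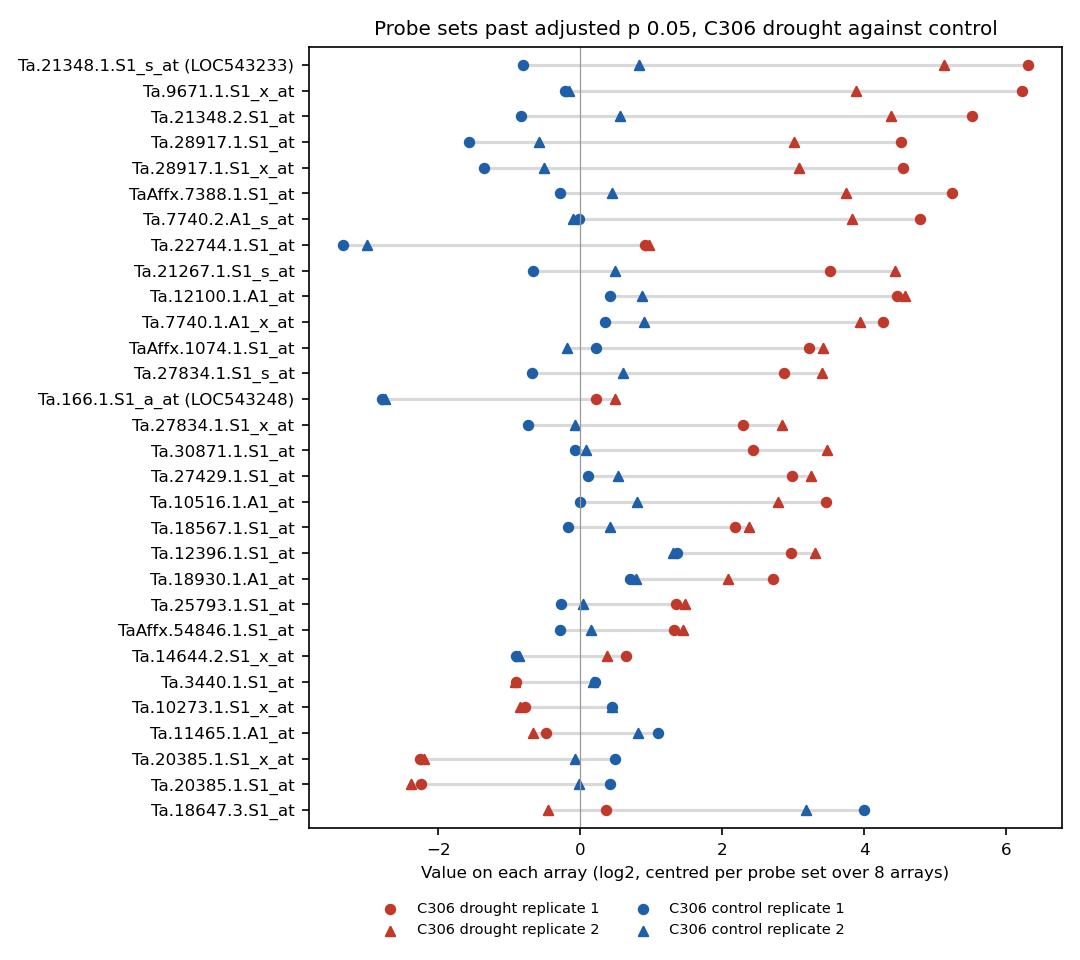
Values of the 30 probe sets past the threshold on the 4 C306 arrays. The horizontal axis is the log2 value centred per probe set over 8 arrays, and each row is 1 probe set, ordered by its change from high to low. Red marks are drought arrays and blue marks control arrays, with circles for replicate 1 and triangles for replicate 2. Red and blue marks do not overlap in any row, and the changes run from 5.70 to -3.63.

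The smallest adjusted p belonged to Ta.12100.1.A1_at. Its values were 4.47 and 4.58 on the drought arrays, against 0.42 and 0.87 on the control arrays. The change was 3.88 (SE 0.18, adjusted p = 0.000441 in limma), or 14.7-fold. Both drought arrays were high and close to each other. Ta.166.1.S1_a_at, annotated as LOC543248, came next with 0.22 and 0.48 under drought, against -2.80 and -2.74 in control. It rose by 3.12 (SE 0.17, adjusted p = 0.000848), or 8.70-fold. Ta.22744.1.S1_at had 0.91 and 0.97 under drought and -3.34 and -3.01 in control, a change of 4.11 (SE 0.24, adjusted p = 0.00102), or 17.3-fold. In these last 2 probe sets the control arrays were the ones far from 0, and they were the lowest of the 8 arrays. WL711 drought read -0.50 and -0.22 for LOC543248, against 0.58 and 0.74 in WL711 control. For Ta.22744.1.S1_at WL711 drought read -1.29 and -0.58, against 0.58 and 0.80 in WL711 control. Under drought the C306 values thus came within the range of WL711 for LOC543248 and above it for Ta.22744.1.S1_at. These 3 were the probe sets that passed under every alternative that kept them, including the fit on the 4 C306 arrays alone. The alternative without multi-transcript probe sets removed LOC543248, so it was tested in 15 alternatives and the other 2 in 16.

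The highest change was in LOC543233, read by Ta.21348.1.S1_s_at. Its values were 6.30 and 5.12 under drought and -0.81 and 0.83 in control. It rose by 5.70 (SE 0.57, adjusted p = 0.0191), or 52.2-fold. The control arrays stood apart from each other, yet both were far below the drought arrays. Ta.21348.2.S1_at, of the same identifier cluster but without a gene in the annotation, read 5.51 and 4.37 under drought, against -0.83 and 0.55 in control. The remaining probe set of the cluster, Ta.21348.1.S1_x_at, changed by 5.53 and did not pass, with an adjusted p of 0.0841. Probe sets that share a cluster are not independent of each other, since they can read the same transcripts.

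Further clusters held several high probe sets. Ta.28917.1.S1_at had 4.52 and 3.02 under drought, against -1.57 and -0.59 in control, and rose by 4.85. Ta.28917.1.S1_x_at rose by 4.74, while the other 2 probe sets of that cluster changed by 0.14 and 0.07 and did not pass. In the Ta.7740 cluster all 5 probe sets were above 0 and separated by watering, with changes of 0.89 to 4.37. Ta.7740.2.A1_s_at read 4.79 and 3.83 under drought and -0.02 and -0.10 in control, and Ta.7740.1.A1_x_at read 4.27 and 3.94 under drought and 0.36 and 0.90 in control. Ta.9671.1.S1_x_at read 6.22 and 3.88 under drought, against -0.21 and -0.16 in control, a rise of 5.23. Its drought arrays stood well apart, and the other 5 probe sets of its cluster had smaller changes of 0.16 to 2.35 and did not pass. The 30 probe sets fell into 25 clusters, of which 9 held more than 1 probe set and 5 more than 1 that passed. Identifiers ending in _x, _s or _a mark probe sets that can read several transcripts, and they made up 12 of the 30, beside 20.8% of the array.

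Among the 6 probe sets that fell, Ta.18647.3.S1_at had the largest change. It read 0.36 and -0.46 under drought and 3.99 and 3.18 in control, a change of -3.63 (SE 0.31, adjusted p = 0.00934). The control arrays were high, and the drought arrays lay near the WL711 arrays, which ran from -0.57 to 0.09. Ta.20385.1.S1_at read -2.25 and -2.38 under drought and 0.41 and -0.02 in control, a change of -2.51 (adjusted p = 0.00251). Here the drought arrays were the ones apart, and the WL711 arrays all lay between -0.11 and 0.11. Ta.20385.1.S1_x_at of the same cluster fell by 2.44. The other 3 were Ta.11465.1.A1_at, which fell by 1.53, Ta.10273.1.S1_x_at, which fell by 1.26, and Ta.3440.1.S1_at, which fell by 1.11.

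The size of a change and its call were far from the same. A change of at least 1 on the log2 scale was seen in 756 probe sets upward (1.24%) and 379 downward (0.619%). A change of at least 2 was seen in 182 upward (0.297%) and 48 downward (0.0785%), and of these 230 only 22, or 9.57%, passed. A change of at least 3 was seen in 50 upward (0.0817%) and 12 downward (0.0196%), and of at least 4 in 22 upward (0.0360%) and 1 downward (0.00163%). Drought and control arrays did not overlap in 177 of the 182 and in 47 of the 48. Over all probe sets, 17.2% were separated upward and 21.5% downward. The 182 and 48 were chosen by their change on these same 4 arrays, which makes separation likely, so these counts are a description.

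The control arrays differed from each other in the same direction as the drought change. Of the 182 probe sets higher by at least 2, C306 control replicate 2 lay nearer the drought arrays than control replicate 1 in 161, or 88.5%. Over the 182, the median values were 2.70 and 2.06 on the drought arrays, against -0.68 and 0.32 on control replicates 1 and 2. The gap between the controls reached 1 in 106 of them with replicate 2 nearer drought, and in 2 with replicate 1 nearer. Of the 48 lower by at least 2, replicate 2 was nearer drought in 42, or 87.5%. The drought arrays were uneven as well. Drought replicate 1 lay farther from the controls than replicate 2 in 117 of the 182, and drought replicate 2 lay farther in 42 of the 48, where the median gap between the drought arrays was 0.90. Over all probe sets, control replicate 2 was above control replicate 1 in 47.4%. Across the 61179 probe sets, the gap between the control arrays correlated with the drought change at r = 0.458, and the gap between the drought arrays did so at r = 0.106. These correlations are descriptions across probe sets of the same 4 arrays, and each uses the same control or drought arrays in both of its measures. The SD over all probe sets was 0.371 on control replicate 1 and 0.317 on control replicate 2, and the part of array spread or quality in this pattern was not tested.

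**Figure D2:**
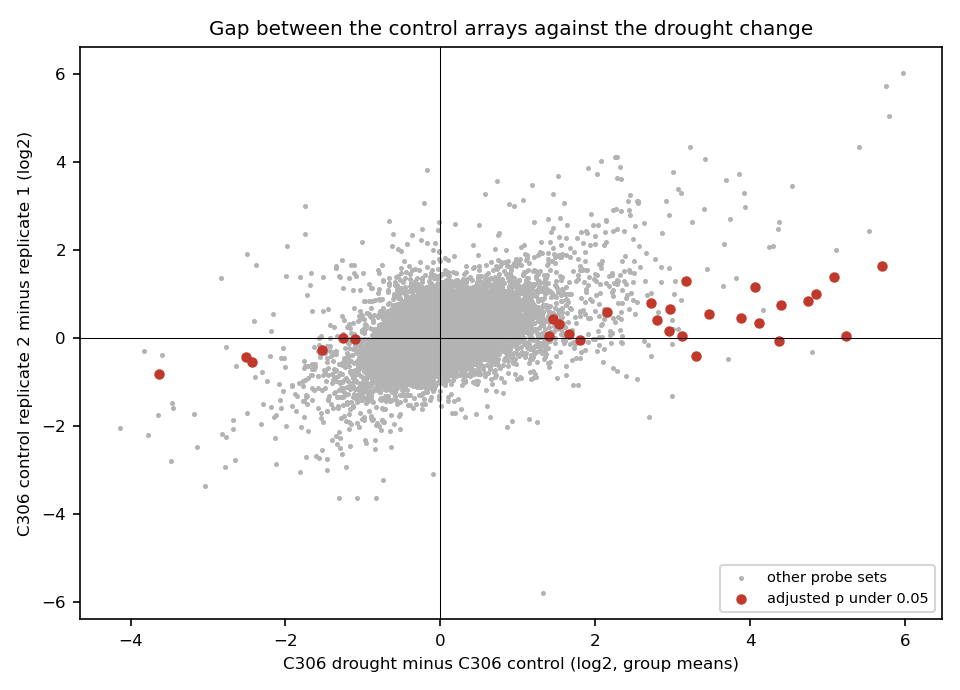
Gap between the 2 C306 control arrays against the drought change, for 61179 probe sets. The horizontal axis is C306 drought minus C306 control (log2, group means) and the vertical axis is control replicate 2 minus control replicate 1 (log2). Red points are the 30 probe sets that passed and grey points all others. High changes lie mostly above the horizontal line and low ones mostly below it, and the red points lie closer to it than many grey points of the same change.

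The count of probe sets that passed moved with single arrays. Without C306 control replicate 2, 421 probe sets passed (0.688%), 269 higher and 152 lower, and all 30 were among them. Without C306 control replicate 1, 16 passed, 8 in each direction, and 10 of the 30 were among them. Without drought replicate 2, 72 passed, and without drought replicate 1, 25. Leaving out either WL711 control array left 9 and either WL711 drought array 12. In each such fit the lone array of a group is assumed to vary like the other groups.

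**Figure D3:**
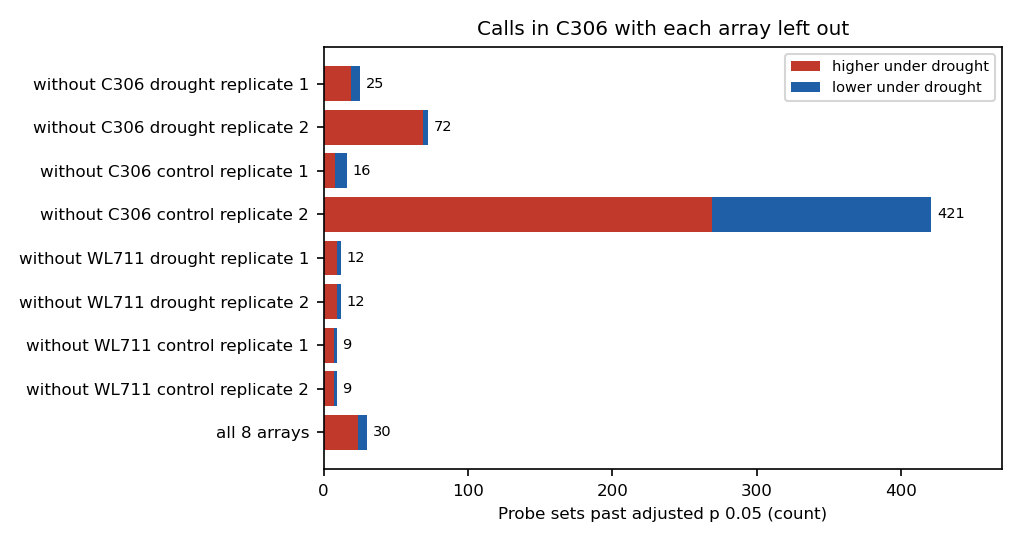
Number of probe sets past the threshold in C306 with each array left out in turn, and with all 8 arrays. Bars start at 0, with red for probe sets higher and blue for those lower under drought, and the total stands at the end of each bar. The count is 421 without C306 control replicate 2 and between 9 and 72 without any other array.

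The annotation paired 771 genes with the array, of which LOC543248 and LOC543233 passed (0.259%). Taking 1 probe set for each gene, 31 were higher by at least 1 (4.02%) and 19 lower by at least 1 (2.46%). Over all probe sets these shares were 1.24% and 0.619%. Drought arrays lay above both control arrays in 181 genes (23.5%) and below both in 170 (22.0%). For all probe sets the shares were 17.2% and 21.5%. An unadjusted p under 0.05 in limma was found for 124 genes (16.1%), beside 7.73% of all probe sets. Several further genes had large changes that did not pass. LOC543234 read 8.04 and 6.48 under drought, against -0.31 and 4.02 in control, a change of 5.40 (SE 1.12, adjusted p = 0.207). LOC543313 read 5.69 and 6.10 under drought, against -0.37 and 3.09 in control, a change of 4.54. LOC543363 read 6.37 and 5.13 under drought, against 0.16 and 2.64 in control, a change of 4.35. In each of these 3, control replicate 2 was the higher control. Without it the changes were 7.57, 6.27 and 5.59, and without control replicate 1 they were 3.24, 2.81 and 3.12. LOC543201 changed by 3.44, LOC778394 by 2.81 and LOC100049032 by 1.58, with adjusted p of 0.159, 0.215 and 0.173. The other 2 probe sets of LOC100049032 changed by 0.15 and 0.12.

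Both annotated genes that passed were higher, and the lower genes are given as values. LOC780599 read -2.13 and -3.58 under drought, against 2.02 and -0.19 in control, a change of -3.77 (adjusted p = 0.187). Its 4 probe sets changed by -3.77 to -0.27. LOC732705 read -0.76 and -0.85 under drought and 1.81 and 0.75 in control, a change of -2.09 (adjusted p = 0.0868). LOC543436 changed by -2.02, LOC100049056 by -2.20 and LOC606346 by -2.16, and none of them passed. Without C306 control replicate 2 the changes of LOC780599 and LOC732705 were -4.88 and -2.61. Without control replicate 1 they were -2.67 and -1.56.

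**Figure D4:**
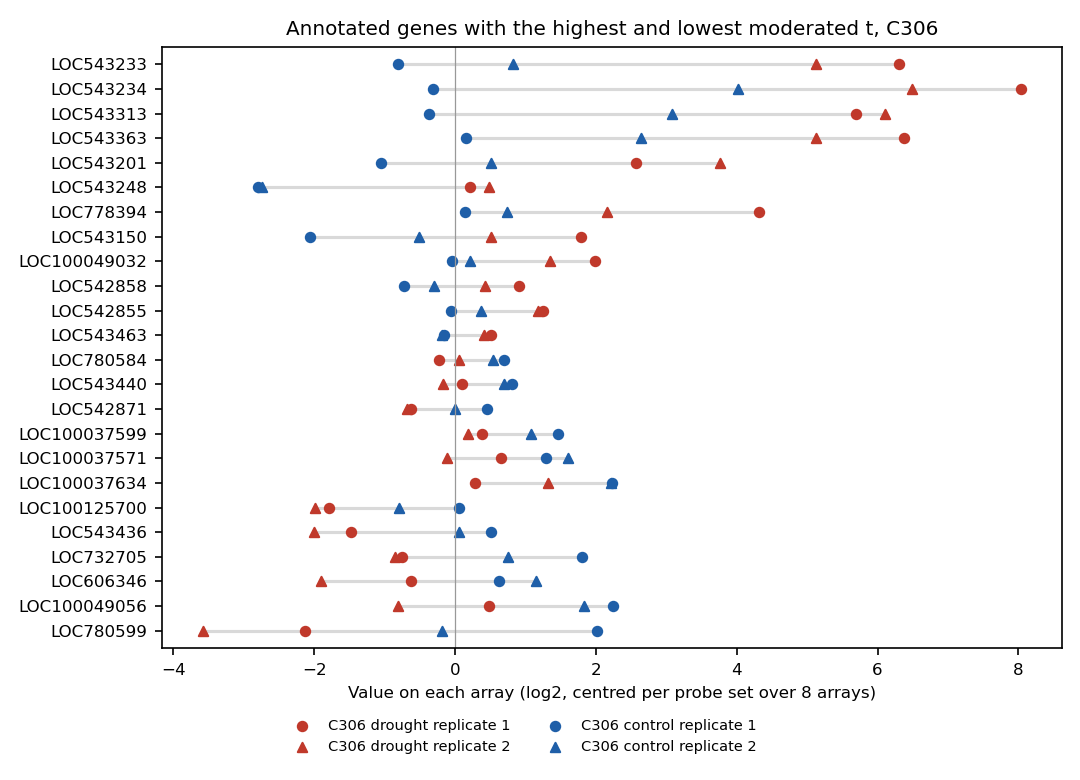
Values on the 4 C306 arrays of 24 annotated genes, the 12 with the highest and the 12 with the lowest moderated t among genes whose drought arrays lay beyond both control arrays. The horizontal axis is the log2 value centred per probe set over 8 arrays, with red for drought, blue for control, circles for replicate 1 and triangles for replicate 2. LOC543234, LOC543313 and LOC543363 show a control replicate 2 (4.02, 3.09 and 2.64) well above control replicate 1.

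In the gene order of the IWGSC CS RefSeq v2.1 table, 761 annotated genes could be placed, and 9 pairs of them were direct neighbours. In 2 of these pairs both genes changed by at least 1 in size, as did 48 of the 761 placed genes. LOC543234 and LOC543233 changed by 5.40 and 5.70, and LOC543085 and LOC543090 by 3.91 and 1.90. Of these genes, LOC543233 alone passed. Whether probes of one neighbour also read the other was not tested.

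A name beyond a locus number was found for 102 genes. Taking 1 probe set for each, none of the named genes passed, and 7 had an unadjusted p under 0.05 (6.86%), beside 7.73% of all probe sets. The lowest adjusted p among them was 0.301. Changes ran from -1.42 to 2.53 with a median of -0.077, and 66 of the 102 (64.7%) were below 0, beside 54.3% of all probe sets. Drought arrays lay above both control arrays in 13 of them (12.7%) and below both in 27 (26.5%). Over all probe sets these shares were 17.2% and 21.5%. The values of named genes below therefore describe these 4 arrays and show no tested change.

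Dehydrin and LEA genes, the class most associated with drying cells, showed small differences. COR410, an acidic dehydrin known from cold-acclimated wheat, read 0.04 and -0.03 under drought, against -0.21 and 0.07 in control, a difference of 0.07 (SE 0.16). Rab15, a dehydrin of the abscisic acid responsive group, read -0.06 and -0.42 under drought and 0.08 and 0.06 in control, a difference of -0.31. LEA1 differed by 0.04, and the Em proteins EMH2 and EM, hydrophilic proteins of drying embryos, by -0.28 and -0.08. Of these 5 genes, 0 passed and 0 had an unadjusted p under 0.05 in limma, beside 0.0490% and 7.73% of all probe sets. With 5 genes, these counts cannot show whether the class responded. The signs of COR410, LEA1 and EM turned when single arrays were left out. The annotation names few of the wheat dehydrins, and no named gene matched the lists for abscisic acid signalling or for proline and nitrogen metabolism.

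All 6 tubulin genes, whose products form microtubules, had negative differences of -1.42 to -0.26 with a median of -0.32. Drought arrays were below both controls in 5. Over all probe sets, 54.3% were below 0 and 21.5% had both drought arrays below both controls. Without C306 control replicate 1 the alpha-tubulin TUBA lay above 0 (0.052). The beta-tubulin tubb2 read -0.40 and -1.48 under drought, against 0.58 and 0.40 in control, a difference of -1.42 (SE 0.55, unadjusted p = 0.0305, adjusted p = 0.556 in limma). Of 5 histone genes, whose products package DNA, 3 were below 0 with a median of -0.042 over the 5, taking 1 probe set for each gene, and the signs of H2A-2, H2A-3 and wcH2B-8 turned when single arrays were left out. None of these 11 genes passed. By the probe set that represents each gene, tubb2 alone had an unadjusted p under 0.05, but other probe sets of H2A-9 and Tubb5 did too. H2A-9 had 6 probe sets, all below 0 at -1.11 to -0.40, and drought arrays were below both controls in 5. The lowest of them read -1.29 and -0.89 under drought, against -0.32 and 0.36 in control (unadjusted p = 0.0024, adjusted p = 0.259 in limma). Tubb5 had 4 probe sets, all below 0 at -0.57 to -0.28. For wcH2B-8, 5 of 7 probe sets were below 0, while the one that represents it was at 0.09.

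Of 4 defence genes, taking 1 probe set for each, 0 passed and 0 had an unadjusted p under 0.05, and the differences were above 0. Over all probe sets, 0.0490% passed, 7.73% had an unadjusted p under 0.05 in limma and 54.3% were below 0. With 4 genes, these counts cannot show whether the class responded. PR5, which encodes a thaumatin-like protein, read 1.90 and 1.80 under drought and -0.21 and -1.15 in control, a difference of 2.53 (SE 1.42, adjusted p = 0.81). Its SE pools the spread of WL711, where the drought arrays read 4.59 and -1.06. TaGlu1a, a beta-glucosidase, read 2.75 and 0.63 under drought and 0.29 and 0.76 in control, so 1 drought array made its difference of 1.16 and the groups overlapped. XIP-I, an inhibitor of microbial xylanases, differed by 0.52, and the purothionin gene Pur-A1 by 0.09. The direction for Pur-A1 was not settled, since its other probe set differed by -0.33 with drought arrays below both controls, and the first turned to -0.043 without drought replicate 2.

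Of genes in metal nutrition and metabolism, DMAS1, which encodes deoxymugineic acid synthase of phytosiderophore synthesis, read 0.85 and 0.87 under drought and -0.49 and 0.41 in control, a difference of 0.90 (SE 0.26, adjusted p = 0.359). Without C306 control replicate 2 the difference was 1.35, and without control replicate 1 it was 0.45. DMAS1 had 3 probe sets, with differences of 0.24 to 0.90. TaPCS1, phytochelatin synthase, differed by 0.36. APT1, an adenine phosphoribosyltransferase of purine salvage, read 0.48 and 0.46 under drought and -0.17 and 0.02 in control, a difference of 0.55 (adjusted p = 0.301). The glycolytic genes GAPN, a non-phosphorylating glyceraldehyde-3-phosphate dehydrogenase, and Pgk-1, a phosphoglycerate kinase, differed by -0.48 and -0.39, with drought arrays below both controls in each. Such separation downward was seen in 21.5% of all probe sets. TaPMM, the other member of the glycolysis and hexose phosphate list, differed by 0.20, and its groups overlapped. In redox metabolism the peroxidase TaPrx1 differed by -0.50 (unadjusted p = 0.033, adjusted p = 0.567 in limma). Its 4 probe sets differed by -0.52 to -0.30, with drought arrays below both controls in each. CAT1, a catalase, differed by 0.17, while its other probe set differed by -0.07 and its groups overlapped.

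None of the 3 photosynthesis genes passed. The gene rbcl, for the large subunit of Rubisco, had 28 probe sets with differences of -0.70 to 0.26. Of the 28, 20 were below 0 and 2 had an unadjusted p under 0.05 in limma. Over all probe sets, 54.3% were below 0 and 7.73% had an unadjusted p under 0.05. The lowest rbcl probe set was at -0.70 (adjusted p = 0.55 in limma). It lay at -1.17 without C306 control replicate 2 and at -0.23 without control replicate 1. PsbP and PsbO, of the oxygen-evolving complex of photosystem II, differed by -0.16 and -0.02, and the sign of PsbO turned when single arrays were left out. The 6 named genes of seed storage and enzyme inhibitors differed by -0.23 to 0.04, and 0 passed.

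**Figure D5:**
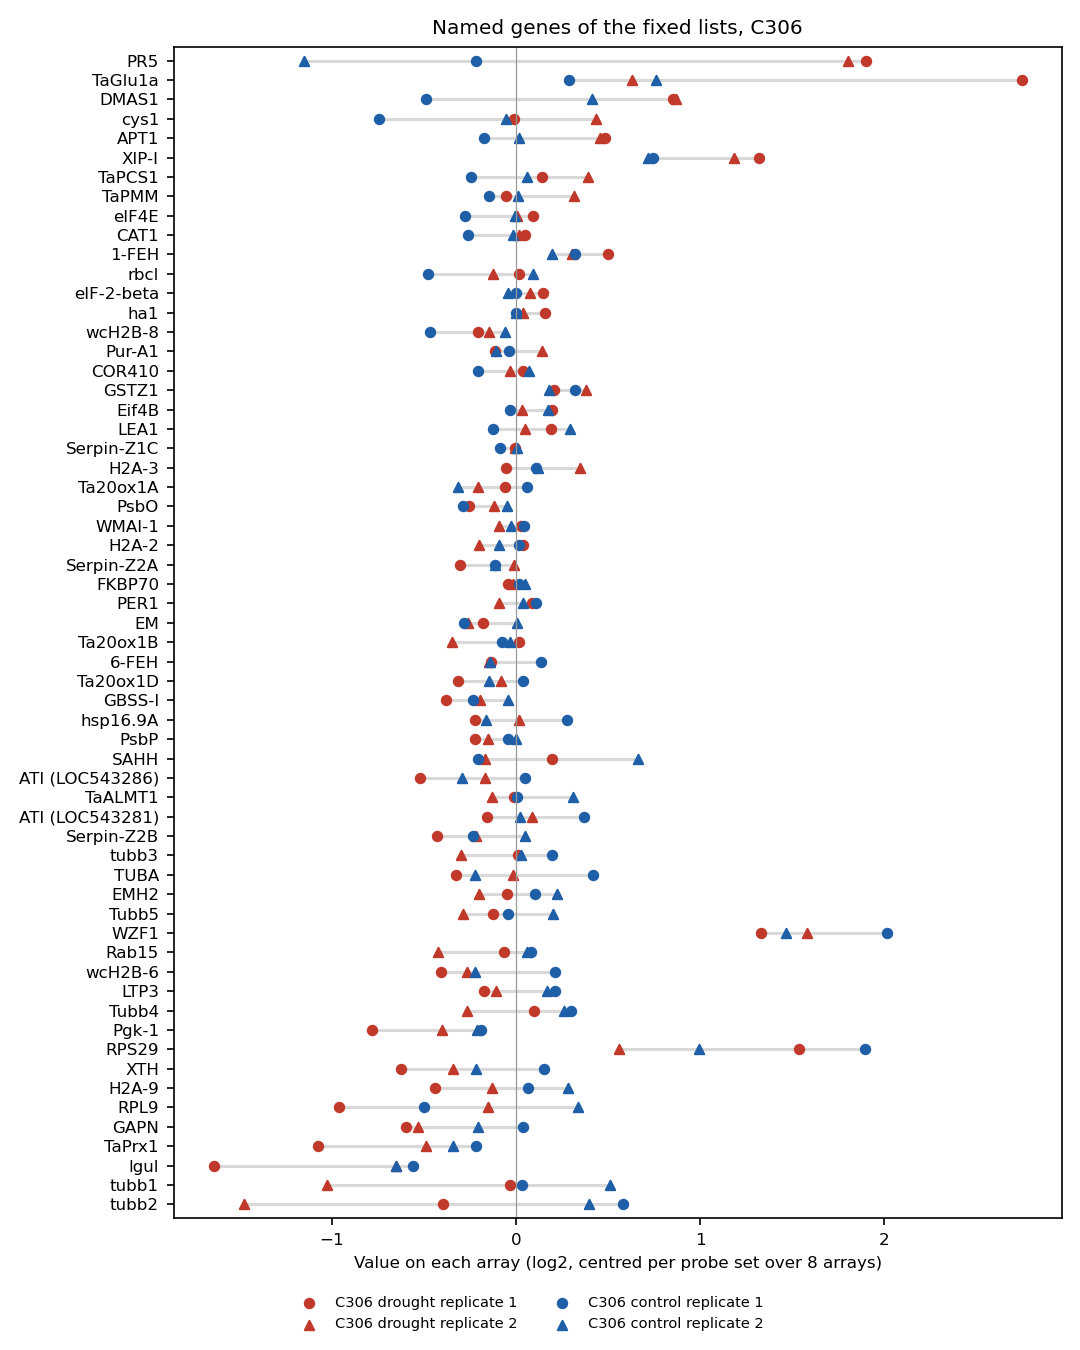
Values on the 4 C306 arrays of the 60 named genes in the gene lists, ordered by the difference between drought and control. The horizontal axis is the log2 value centred per probe set over 8 arrays, with red for drought, blue for control, circles for replicate 1 and triangles for replicate 2. PR5 is at the top with a difference of 2.53 and tubb2 at the bottom with -1.42, and most genes have red and blue marks close together.

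The 30 probe sets that passed in C306 changed by -1.63 to 0.77 in WL711, where 0 of them passed and 2 changed by at least 1 in size. In WL711 as a whole 22 probe sets passed (0.0360%). The difference of the drought change, C306 minus WL711, was tested in the same fit, and 25 of all probe sets passed (0.0409%), with 5987 (9.79%) at an unadjusted p under 0.05. Of the 30, 10 had a difference past the threshold, and their adjusted p over the 30 ran from 0.00170 to 0.221. The other 20 are therefore not shown to differ between the cultivars. Since the 30 were chosen on the C306 change, which is a part of this difference, the share of 10 is a description.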

How the data were processed

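The authors deposited log2 values for 8 arrays, which per the submitters' processing notes came from RMA (background correction, quantile normalization and 1 log2 value per probe set), whose version is not given in the sources used here. The median of each probe set over the 8 arrays was 0 within 5e-07, so the deposited values had been centred. Scanner values were not used here, and the log base rests on the notes. Affymetrix control probe sets (111) were not tested.

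limma 3.58.1 in R 4.3.3 fitted 4 group means (lmFit, contrasts.fit, eBayes without trend) with 4 residual and 4.63 prior degrees of freedom. SE is the moderated standard error. The fit was tested on simulated data. Of 771 annotated genes, 770 matched the IWGSC CS RefSeq v2.1 gene table, used for names and neighbour order. Each gene was represented by 1 probe set, with a plain _at ending preferred, then _a_at, _s_at and _x_at.

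Named were all probe sets that passed and their genes' other probe sets, the 12 highest and 12 lowest annotated genes by moderated t with separated groups, and members of 21 lists made as text patterns (all up to 6, otherwise 4). Those patterns took in cys1 by its symbol and missed 42 named genes. LOC543085, LOC543090 and the tubulins, histones and other list members or probe sets beyond this rule were named after their values were seen. The members and lists were chosen with earlier results of these data known.

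Alternatives covered replicate number as a block, 2 rescalings, robust eBayes, array weights, C306 arrays alone, removal of multi-transcript probe sets, a hybridisation term, a minimum change, a looser threshold and each array left out. Trend in eBayes was not used, since centred means do not measure brightness. Same-numbered arrays did not deviate together: the correlation for C306 drought and control was 0.020, and over all 6 pairs of groups it ran from -0.093 to 0.11.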

Additional observations from a re-analysis of the deposited data

Results flagged for a closer look

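For 12 named probe sets the drought change differed between C306 and WL711, by the interaction term of the limma fit with an adjusted p under 0.05 over all probe sets. The difference is the C306 change minus the WL711 change on the log2 scale. It was 5.74 for Ta.22744.1.S1_at, which changed by 4.11 in C306 and -1.63 in WL711 (adjusted p = 0.00170). It was 4.14 for LOC543248, with 3.12 in C306 and -1.02 in WL711, and 3.81 for Ta.12100.1.A1_at, with 3.88 in C306 and 0.07 in WL711. The Ta.7740 cluster gave 4.48 for Ta.7740.2.A1_s_at and 3.0 for Ta.7740.1.A1_x_at. The remaining higher ones were Ta.27834.1.S1_x_at with 3.31, Ta.27429.1.S1_at with 2.67 and Ta.14644.2.S1_x_at with 1.90. The Ta.20385 cluster gave -2.63 for Ta.20385.1.S1_at and -2.56 for Ta.20385.1.S1_x_at, and both were low on the C306 drought arrays and near 0 on the WL711 arrays.

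LOC543150 and LOC543440 passed this test without passing in C306 alone. LOC543150 had a difference of 6.70 (adjusted p = 0.0485). It read 1.78 and 0.52 in C306 drought, against -2.06 and -0.52 in C306 control. WL711 drought read -1.55 and -1.62, against 3.23 and 2.14 in WL711 control. The other probe set of LOC543150 had a difference of 2.81, which did not pass (adjusted p = 0.107 in limma). That probe set changed by 2.13 in C306 and -0.68 in WL711. LOC543440 had a difference of -2.24, with -0.78 in C306 and 1.45 in WL711 (adjusted p = 0.0287).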

How the results depend on the processing

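No named probe set that passed changed sign under any alternative. Of the 30, 3 passed in every alternative that kept them, 5 lost the call once, and 22 lost it in 3 to 12 of 15 or 16 alternatives. Of 83 named probe sets that did not pass, 11 passed in at least 1 alternative. For C306 drought against control (30 probe sets), 65 passed with array weights, 3 on the C306 arrays alone (2 residual degrees of freedom), 16 without multi-transcript probe sets (fewer tested) and 67 at an adjusted p under 0.10. With each array left out the count ran from 9 to 421. For the difference C306 minus WL711 (25 probe sets), 14 passed without multi-transcript probe sets and 103 at an adjusted p under 0.10, and with each array left out the count ran from 2 (without WL711 control replicate 1) to 199 (without C306 control replicate 2), and it was 15 when WL711 control replicate 2 was dropped, 9 or 4 when either WL711 drought array was dropped, and 46 when C306 drought replicate 2 was dropped. With the replicate block, 25 passed in C306, 21 of them among the 30, and 19 in the difference. A looser threshold passes more by construction. The cause of the other shifts was not tested. Only 2 arrays a group limit the precision throughout.

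Of the 83, 22 changed sign in at least 1 alternative, and none of these 22 passed in any where it did. With each array left out, the differences ran for 6-FEH from -0.27 to 0.0018, COR410 from -0.069 to 0.21, EM from -0.23 to 0.064, Eif4B from -0.062 to 0.15, GSTZ1 from -0.042 to 0.13 and H2A-2 from -0.16 to 0.078. They ran for H2A-3 from -0.17 to 0.23, LEA1 from -0.17 to 0.25, PER1 from -0.16 to 0.013, PsbO from -0.14 to 0.097, Pur-A1 from -0.043 to 0.21 and RPS29 from -0.88 to 0.094. The range was for SAHH from -0.65 to 0.22, Serpin-Z1C from -0.0081 to 0.085, Serpin-Z2A from -0.19 to 0.10, TUBA from -0.59 to 0.052, Ta20ox1A from -0.19 to 0.18 and Ta20ox1B from -0.29 to 0.068. Last, they ran for WMAI-1 from -0.099 to 0.020, hsp16.9A from -0.38 to 0.062, rbcl from -0.14 to 0.42 and wcH2B-8 from -0.12 to 0.29. Ta20ox1A also turned to 0.0066 with each array shifted to one median and to 0.034 with quantile normalization once more, and no other named sign turned with either rescaling. These ranges are each for 1 probe set, and the other 2 of 6-FEH lay at -1.21 and -0.65.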

Other observations

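Of the 102 named genes, 42 fell in no list, and their differences between C306 drought and control ran from -0.43 to 0.32, with 0 past the threshold in limma. TaCOMT1, a caffeic acid O-methyltransferase of lignin synthesis, was the lowest at -0.43 (SE 0.19, unadjusted p = 0.0508). BMY1, a beta-amylase, was the highest at 0.32 (SE 0.45). The Calvin cycle genes PRK and FBP differed by -0.14 and -0.02, and petC, of the cytochrome b6f complex, by 0.02. AGP-S, a small subunit of ADP-glucose pyrophosphorylase in starch synthesis, differed by 0.30 and the invertase gene IVR1 by 0.09.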
